A study of Mus musculus with 12 samples.

Results

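The Wnt genes described here are the 61 protein-coding rows of the deposited table that carry a Wnt, Frizzled (Fzd), Sfrp, Rspo or numbered Dkk symbol or belong to a set of 20 named co-receptors, regulators and targets, out of 35509 rows in all. They were chosen by symbol and not by their values. The study took clones from the distal Fallopian tube (oviduct) of 6 untreated mice at 4 weeks of age that carried MADM RG;GR alleles on a mixed background and are labelled MADM wildtype. MADM (mosaic analysis with double markers) labels single cells and their descendants with fluorescent proteins after recombination between chromosomes, so that a clone can be seen and its size judged. Each mouse gave 1 library from 200 pooled cells of large clones and 1 library from 200 pooled cells of small clones, all taken by laser microdissection, so that there were 6 libraries of each kind. The number of clones in a pool is not given in the labels. The labels used here do not name the Cre driver that started the clones.

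Wnt proteins are secreted lipid-modified ligands that bind Frizzled receptors together with the co-receptors Lrp5 or Lrp6. In the canonical branch this binding disables a destruction complex that contains Axin and Apc, so that beta-catenin (Ctnnb1) accumulates and drives transcription with TCF/LEF factors. R-spondins, acting through Lgr receptors, keep Frizzled at the cell surface by removing the ligases Rnf43 and Znrf3, while Sfrp and Dkk proteins act outside the cell on ligands or co-receptors. Wnt4 and Wnt7a are known for their roles in the formation and patterning of the Mullerian duct, from which the oviduct develops.

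The libraries held 3057979 to 4227129 expected counts. They differed in the share of counts on 1541 protein-coding genes of smell and taste receptors, called chemoreceptor genes here, which have no known role in this epithelium. The share was 7.75% to 10.9% in 5 libraries, namely large 1, large 2, large 6, small 3 and small 6 (clone size and mouse), and 0.831% to 4.10% in the other 7. Epithelial markers (Epcam, Krt8, Krt18, Krt19 and Cdh1) summed to 244 to 1314 CPM in those 5 and 3905 to 8592 CPM in the 7, where CPM is a count scaled to a common library size after TMM adjustment. Krt8, Krt18 and Krt19 were each lower in the 5 without overlap. Epcam, at 4.24 to 15.1 CPM in the 5 and 6.29 to 53.0 CPM in the 7, overlapped, as did Cdh1 at 0.630 to 14.6 and 0 to 28.1 CPM. Markers of fibroblasts summed to 15.8 to 521 CPM over all libraries those of smooth muscle to 1.68 to 118, of endothelium to 26.4 to 363, of neural cells to 39.7 to 463 and of red blood cells to 33.0 to 5928 CPM. Immune markers summed to 13.1 to 235 CPM in the 5 libraries and 0 to 55.0 CPM in the 7. The means of Ptprc, Cd3e and Adgre1 were higher in the 5, while Cd68 had 0.156 CPM in the 5 and 5.28 CPM in the 7. Each marker had counts in at least 1 library. The part of any of these in the values below was not tested. The chemoreceptor genes also served as a measured background: their 95th percentile ran from 27.2 to 207 CPM per library and their 99th from 158 to 1421 CPM. Only 4 of the 61 Wnt genes, Wnt4, Wnt7b, Tcf7l2 and Lrp6, exceeded the 95th percentile of their library in at least 6 of 12 libraries, which is close to the 7.69% of 20180 protein-coding genes outside the chemoreceptors that did so.

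The sequences 5′ of Wnt4, the member with the highest level, and of Sp5, a direct target of beta-catenin and TCF that was almost without counts, are shown to set the most abundant gene beside a known target at the floor of detection. Both are the 250 bases before the RefSeq start on the plus strand of GRCm38.p6, at chr4:137277385-137277634 and chr2:70474673-70474922, and capitals mark matches on either strand to the TCF/LEF motif ATCAAAG or to one of its variants, which are TTCAAAG and also AACAAAG and lastly TACAAAG.
Wnt4: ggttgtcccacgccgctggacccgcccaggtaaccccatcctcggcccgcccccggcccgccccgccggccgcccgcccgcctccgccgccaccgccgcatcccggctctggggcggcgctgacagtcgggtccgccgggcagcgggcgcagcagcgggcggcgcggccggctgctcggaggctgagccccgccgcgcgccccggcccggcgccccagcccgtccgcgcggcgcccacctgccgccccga
Sp5: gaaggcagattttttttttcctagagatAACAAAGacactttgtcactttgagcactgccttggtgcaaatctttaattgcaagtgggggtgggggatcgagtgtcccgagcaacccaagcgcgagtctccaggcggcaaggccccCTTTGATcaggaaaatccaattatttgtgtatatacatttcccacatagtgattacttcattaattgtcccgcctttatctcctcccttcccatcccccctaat
The Sp5 window had 2 matches and 6 CpG dinucleotides, and that of Wnt4 had 0 matches and 44 CpG dinucleotides. Of 49 windows found for 39 of the 61 genes, 14.3% held a match, against 14.8% of 32851 windows of all genes. A match describes letters and not a bound site.

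Wnt4 (ENSMUSG00000036856, chromosome 4, 137004800 to 137027037 in the table's coordinates) had the highest mean level of the module. Its level was lowest at 467, median 803 and highest at 1131 CPM in large clones, and 314, 808 and 1006 CPM in small clones. The groups overlapped over most of their range. By length, using the longest GENCODE transcript, the mean over 12 libraries was 180 ± 57.1 CPM per kilobase (SD, n = 12), and Wnt4 ranked between place 104 and 644 among all genes by CPM within a library. It made up 39.6% to 96.3% of the summed CPM of the 19 Wnt ligands. This part was 81.8% to 96.3% in the 5 libraries of high chemoreceptor share and 39.6% to 70.0% in the other 7. After TMM adjustment Wnt4 was also among the genes that varied least. Its coefficient of variation was 31.8% over the 12 libraries, lower than that of all but 1.00% of the 10848 genes tested. Scaled to total counts, Wnt4 ran from 269 to 1266 CPM, and its place among genes by that scaling was not measured.

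The expected counts of Wnt4 were not whole (beyond a tolerance of 1e-06) in any of the 12 libraries. RSEM can give such values to a gene when reads that fit several genes are divided among them, and the table does not say how large that part is. At this tolerance a value very close to a whole number also counts as not whole, and how often that was so was not measured. The Wnt4 transcript is 4194 bases long in GENCODE M21, and 7.90% of its 31-base stretches also occur in transcripts of other genes, 2647 of them in all. Its longest run of A is 26 bases, a length that 0.991% of the tested protein-coding genes reach, where the median is 6. The libraries were amplified from poly(A) RNA, and the part of this run in the Wnt4 counts was not tested. Against the chemoreceptor background, Wnt4 lay above the 95th percentile in 12 of 12 libraries and above the 99th in 8.

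Wnt7b, a ligand of epithelial cells in several organs, was second, at 63.4 ± 58.4 CPM per kilobase (SD, n = 12). Its counts were whole in all 12 libraries. It ran from 1.56 through a median of 161 to 573 CPM in large clones and from 19.8 through 194 to 490 CPM in small clones. Wnt16 followed among ligands at 10.6 ± 10.8 and Wnt5a, the main activator of the non-canonical branch, at 4.25 ± 3.31 CPM per kilobase. The spread of Wnt7b over libraries was nearly as large as its mean, but Wnt7b was above Wnt16 in every library. Their ratio was smallest in the small clones of mouse 3, at 89.0 CPM for Wnt7b and 73.9 CPM for Wnt16. Wnt7a, a Mullerian duct ligand, was at 0 in 7 libraries and at most 20.0 CPM. Of the 19 ligands, 13 had a mean under 5 CPM, and Wnt8a had no count in any library, where 3 counts would be 0.585 to 1.33 CPM. Between 6 and 13 ligands had at least 1 count in a library. Wls, the carrier that takes Wnt ligands to the cell surface, ran from 0 to 94.4 CPM, and Porcn, the enzyme that adds their lipid, had 7 counts in all, each of them in small clones.

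**Figure D1:**
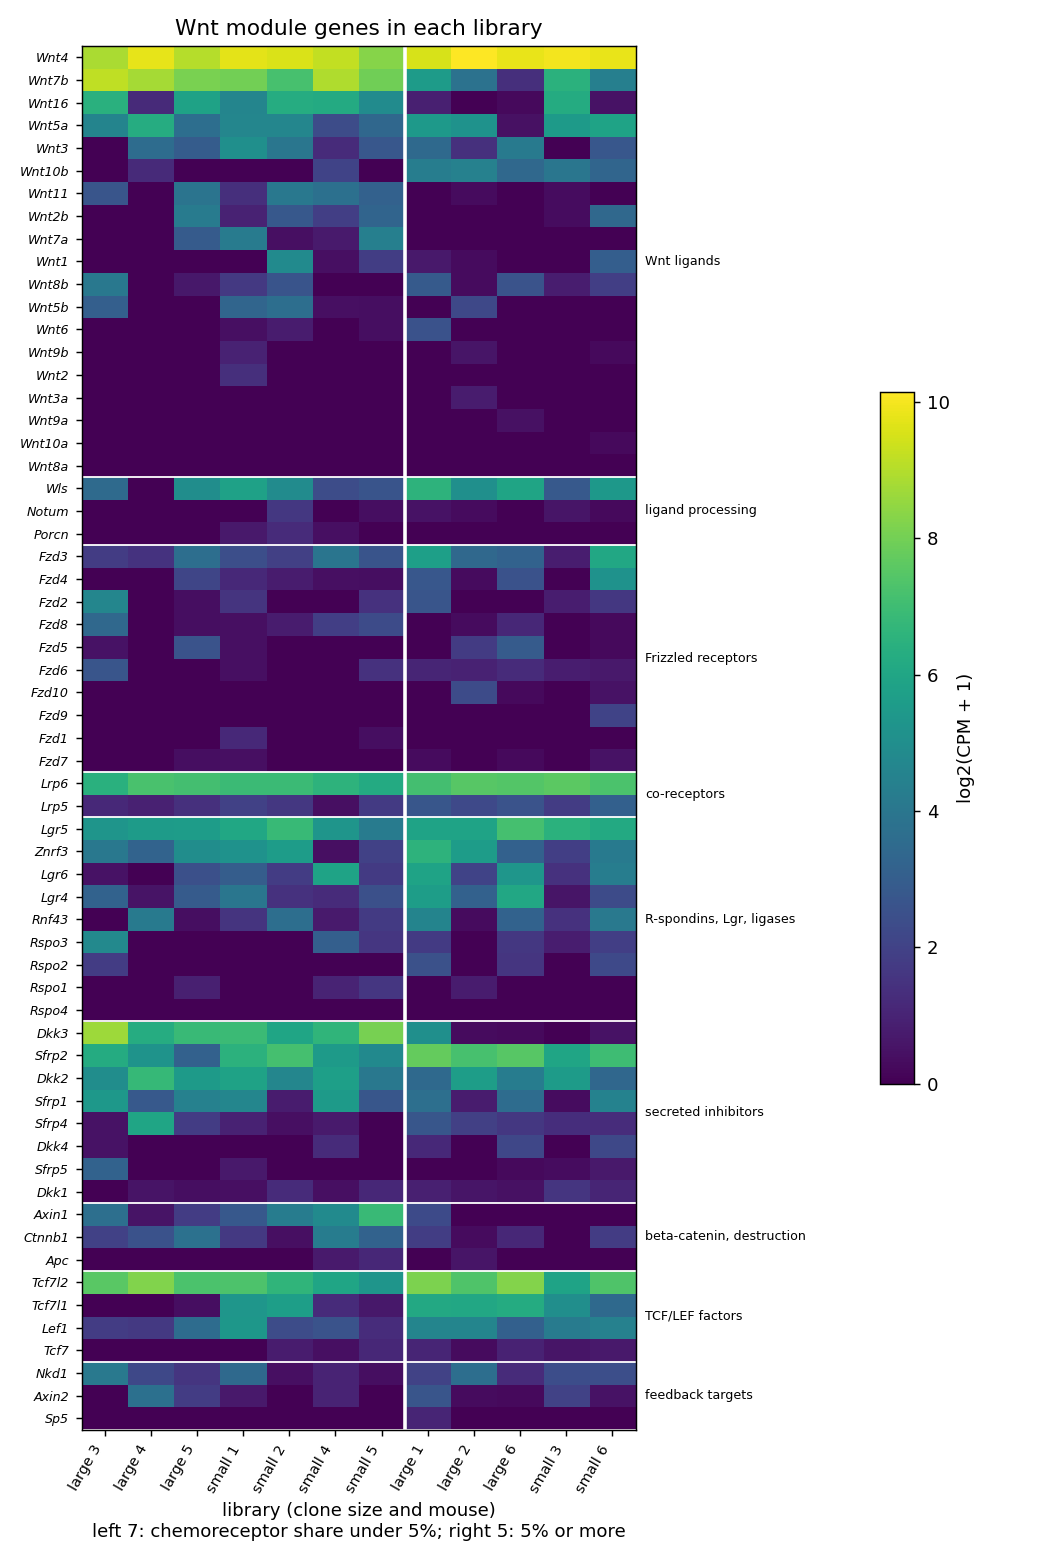
Heat map of log2(CPM + 1) for the 61 Wnt genes (rows, grouped by role) in the 12 libraries (columns, named by clone size and mouse; left 7 with a chemoreceptor share under 5%, right 5 with 5% or more). Wnt4 is bright in every column, from 314 to 1131 CPM, while Wnt7b and Dkk3 are darker in the right 5 columns and most Frizzled genes are near 0.

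Receptors were low apart from Lrp6. Of the 10 Frizzled genes, 9 had a mean under 5 CPM, and Fzd3 was the highest at 1.18 ± 1.68 CPM per kilobase (SD, n = 12). Lrp6 (chromosome 6, 134423439 to 134543928) was measured in every library, from 85.3 to 181 CPM in large clones and from 73.2 to 191 CPM in small clones, and at 14.3 ± 4.00 CPM per kilobase. Lrp5, its close relative, had 0.578 ± 0.413 CPM per kilobase, so that Lrp6 stood above Lrp5 by more than the spread of either. The coefficient of variation of Lrp6 after TMM adjustment, 27.9%, was the lowest of the tested Wnt genes and below that of all but 0.461% of tested genes. Scaled to total counts, Lrp6 ran from 62.5 to 205 CPM. Like Wnt4, Lrp6 had counts that were not whole in 12 of 12 libraries.

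In the R-spondin axis the receptor Lgr5, a target of Wnt signalling and marker of stem cells in the gut and hair follicle, was the most abundant at 13.8 ± 7.38 CPM per kilobase (SD, n = 12), with counts not whole in 12 of 12 libraries. It ran from 38.3 to 143 CPM in large and from 17.7 to 113 CPM in small clones, with no library at 0. It exceeded the chemoreceptor 95th percentile in 1 of 12 libraries. The R-spondin ligands had means of 3.65 CPM for Rspo3, 1.07 for Rspo2 and 0.383 for Rspo1, with no count for Rspo4. Rspo3 was at 0 in 5 libraries and reached 26.4 CPM, from 64 counts, in the large clones of mouse 3. The ligases Znrf3 and Rnf43 had means of 4.08 ± 4.33 and 1.59 ± 1.85 CPM per kilobase.

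Among secreted inhibitors Sfrp2, which binds Wnt ligands, had 47.7 ± 32.4 CPM per kilobase, Dkk3, a divergent Dickkopf protein, 29.1 ± 36.6, and Dkk2, which binds Lrp5 and Lrp6, 10.5 ± 7.51 (SD, n = 12 each). Dkk1, the best-known blocker of Lrp6, stayed between 0 and 1.98 CPM. The order of Sfrp2, Dkk3 and Tcf7l2, at 44.2 ± 25.1 CPM per kilobase, is not resolved by their spread.

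Among beta-catenin and the destruction complex genes, Ctnnb1 and Apc had means under 5 CPM, while Gsk3b, a kinase of that complex from the further pathway list, had a mean of 90.5 CPM. Ctnnb1, beta-catenin itself, ran from 0.235 to 12.6 CPM in large clones and from 0 to 18.0 CPM in small clones, 82 and 101 counts in all. It overlaps Ulk4 on the opposite strand, which had a mean of 241 CPM, and a setting for strand is not given in the sources used here. Apc had 8 counts in 12 libraries and was at 0 in 9 of them. Axin1, the scaffold of the destruction complex, was at 0 in 4 libraries and reached 117 CPM in the small clones of mouse 5.

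The feedback genes Axin2, Nkd1, Sp5 and Notum, which respond to beta-catenin in many tissues, had means under 5 CPM. Axin2 ran from 0 to 12.4 CPM, with 64 counts in large and 19 in small clones and 3 libraries at 0. Sp5 had 5 counts, all in the large clones of mouse 1. Notum, a secreted enzyme that removes the lipid from Wnt ligands, did not exceed 2.10 CPM, and Nkd1, an inhibitor that Wnt signalling induces, had counts in 12 of 12 libraries, from 0.289 to 16.1 CPM. Lef1 had counts in every library, at 1.45 to 39.9 CPM, not whole in 12 of 12. It exceeded the chemoreceptor 95th percentile in 0 of 12 libraries. Tcf7 stayed at or below 1.16 CPM. In bulk libraries such as these, fewer cells that express a gene and less RNA per cell cannot be told apart.

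Large and small clones of the same mice were then compared, which is the comparison the study was designed for. The main test had no term for mouse. No Wnt gene passed it or the fits with mouse as a block. Log2 ratios and fold changes below are of large over small clones. Of the 61 genes, 22 passed the filter on low counts and were tested. The quasi-likelihood test of edgeR put 0 of them at an adjusted p under 0.05, against 0% of all 10848 genes tested. Each SE given below was derived from this test, as the absolute log2 fold change divided by the square root of the F statistic. DESeq2 also called 0 of the 22, against 0.0461% of all genes. At an unadjusted p under 0.05 there was 1 of 22 in edgeR, against 2.54% of all genes, and 3 of 22 in DESeq2, against 4.93% of all genes. Of the 22, 14 were higher and 8 lower in large clones, where 53.2% of all tested genes were higher, and the median log2 fold change was 0.19 against 0.06 for all genes. The 39 genes that were not tested did not pass this filter, which asks for enough counts in enough libraries. Some of them had more counts in all than some tested genes, as with Wnt10b at 340 and the tested Ctnnb1 at 183. On simulated data with the spread of all tested genes, the test called 31 of 150 genes changed 16-fold and 0 of 150 changed 4-fold. The changed genes were drawn at random, so the rate for genes that vary as little as Wnt4 and Lrp6 was not measured. An adjusted p above the threshold does not show that levels were equal.

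The gene with the lowest p was Tcf7l2 (ENSMUSG00000024985, chromosome 19, 55730252 to 55922086), a TCF factor through which beta-catenin acts on its targets. In large clones it had 280, 161, 188, 301, 152 and 308 CPM in mice 1 to 6, and in small clones 157, 98.9, 58.0, 62.3, 38.2 and 164 CPM. It was higher in the large clones of 6 of 6 mice, as were 1.16% of all tested genes, and no Wnt gene was lower in all 6, as were 1.05%. The ranges of large and small clones overlapped, as they did for each of the 61 Wnt genes, where 0.0277% of tested genes were higher and 0.0369% lower in large clones without overlap. The means were 232 ± 72.4 and 96.4 ± 53.4 CPM (n = 6 each, SD), for a log2 ratio of 1.26 (SE 0.49), with an unadjusted p of 0.022 and an adjusted p of 0.9998 in edgeR. The log2 difference within a mouse, of CPM + 1, ran from 0.69 to 2.26. In the 7 libraries of low chemoreceptor share the log2 fold change was 1.14 and in the 5 others also 1.14, with unadjusted p of 0.108 and 0.099 in edgeR. Both sets are parts of the libraries in which Tcf7l2 was picked for its lowest p. Its counts were whole in 9 of 12 libraries. Beside this, summed epithelial markers had a median of 2585 CPM in large clones (range 244 to 8592) against 4438 CPM in small (723 to 7824), and secretory markers 877 and 2308 CPM. Summed immune markers had a median of 44.3 CPM in large against 7.80 CPM in small clones, and endothelial markers 111 and 52.6 CPM, with overlapping ranges. Single markers of these lists differed in direction. Ptprc had 658 counts in large and 108 in small clones and Cd3e 1334 and 395, but Cd68 had 4 and 117. Pecam1 was higher in the large clones of 5 of 6 mice, Kdr was lower in those of 4 of 6, and Tek had 0 and 58 counts. Adgre1 and Cdh5 had few counts in either clone size. The part of any of these markers in the Tcf7l2 difference was not tested.

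**Figure D2:**
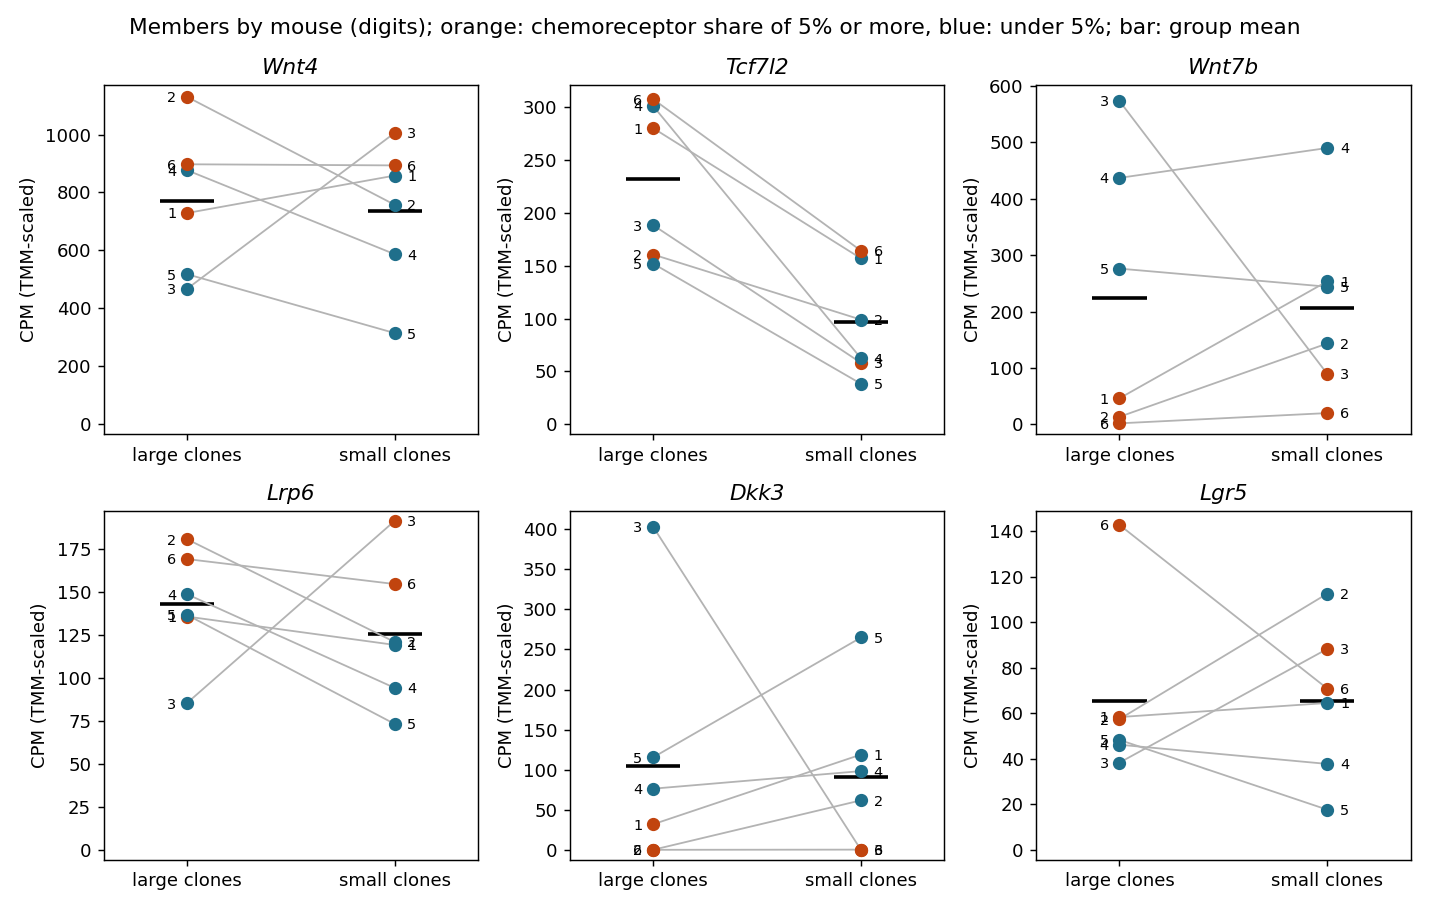
Levels in CPM (TMM-scaled, linear axes from 0) of 6 Wnt genes in large and small clones. Each point is a library, digits give the mouse, lines join the libraries of a mouse, bars are group means, and orange points are the 5 libraries with a chemoreceptor share of 5% or more. All 6 lines of Tcf7l2 fall from large to small clones, while those of Wnt4 and Lgr5 cross.

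Wnt4 did not differ beyond the spread between mice, at 770 ± 251 CPM in large against 736 ± 250.3 CPM in small clones (n = 6 each, SD). It was higher in the large clones of 4 of 6 mice, with a log2 ratio of 0.06 (SE 0.44) and an adjusted p of 0.9998 in edgeR. The sign turned without mouse 2, 4 or 5, at -0.12, -0.063 and -0.021, and was -0.11 and -0.12 within the 7 and the 5 libraries. Lrp6 had 143 ± 33.4 and 126 ± 42.4 CPM, for a log2 ratio of 0.18 (SE 0.43), and was higher in the large clones of 5 of 6 mice. Lgr5 had nearly equal means, 65.2 ± 38.7 and 65.3 ± 34.1 CPM.

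Other genes with wide differences did not pass the test. Lgr4, an R-spondin receptor, had 23.2 ± 27.7 CPM in large against 4.52 ± 5.31 CPM in small clones (n = 6 each, SD), for a log2 ratio of 2.36 (SE 1.11) with an adjusted p of 0.9998 in edgeR. Its 2 highest values, 66.7 and 49.6 CPM, were the large clones of mice 6 and 1, both of high chemoreceptor share. It was higher in the large clones of 5 of 6 mice, and the log2 fold change ran from 1.71 to 2.82 without 1 mouse in turn. It was -0.31 in the 7 libraries of low share and 4.17 in the 5 of high share. Znrf3 had 33.9 ± 33.1 and 17.5 ± 19.7 CPM, for a log2 ratio of 0.95 (SE 1.03), and was higher in the large clones of 4 of 6 mice. Axin1 had 3.12 ± 4.59 against 28.2 ± 44.8 CPM, for a log2 ratio of -3.17 (SE 1.69), and reached 117 CPM in the small clones of mouse 5. Its log2 fold change was -1.71 without mouse 5 and -4.60 without mouse 3. Wnt16 had 24.2 ± 37.8 and 45.7 ± 32.5 CPM, for a log2 ratio of -0.92 (SE 1.43), and -3.05 with mouse as a block. It was at 1.33 CPM or less in the large clones of 4 mice and at 56.7 and 86.2 CPM in the other two, and in small clones it ran from 23.4 to 76.6 CPM apart from 0.420 CPM in mouse 6.

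Wnt7b had 225 ± 243 CPM in large against 207 ± 165 CPM in small clones, and Dkk3 105 ± 153 and 90.7 ± 98.4 CPM (SD, n = 6 each). Their log2 fold changes of 0.12 (SE 1.03) and 0.20 (SE 1.52) turned to -1.24 and -1.09 with mouse as a block and to -0.58 and -1.28 without mouse 3. Sfrp2 (log2 fold change 0.42, SE 0.70), Dkk2 (0.35, SE 0.71) and Wls (0.69, SE 1.06) were nominally higher in large clones, and Ctnnb1 (-0.36, SE 1.11) and Lef1 (-0.34, SE 0.91) nominally lower, each within 1 SE of 0.

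**Figure D3:**
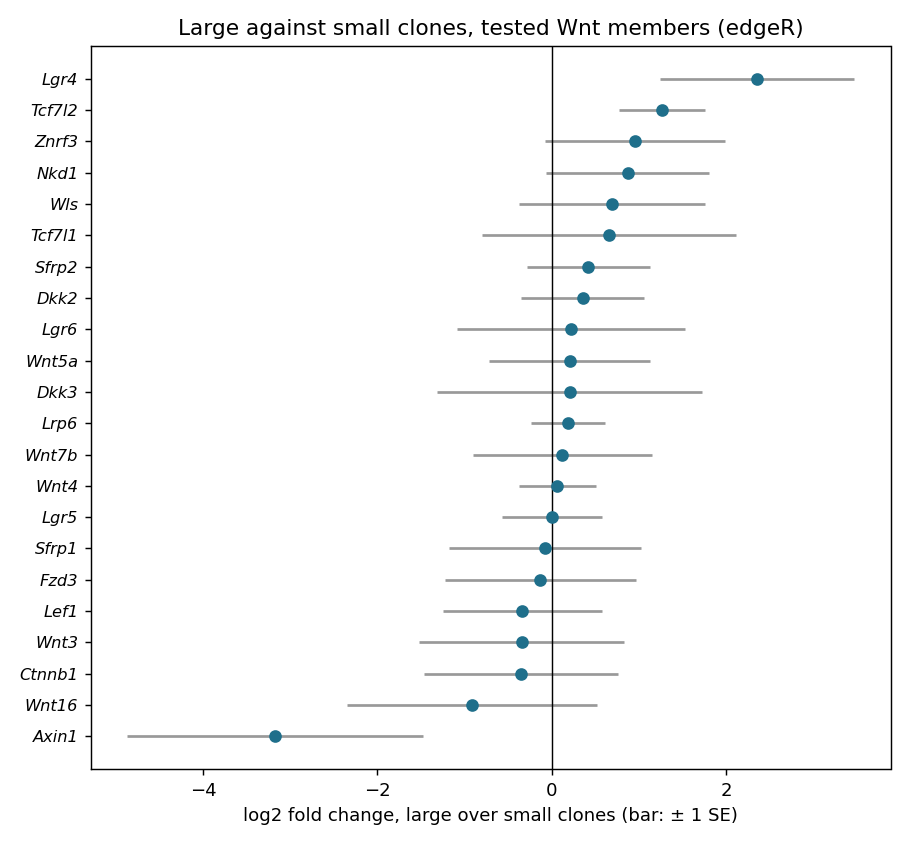
Log2 fold change of large over small clones for the 22 tested Wnt genes in edgeR, with bars of 1 SE, derived from the F statistic, on each side. Of the 22, Lgr4, Tcf7l2 and Axin1 lie more than 1 SE from 0, and Tcf7l2 has the lowest p of the 22.

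Some Wnt genes were apart between the libraries of high and low chemoreceptor share. Wnt7b was at 1.56 to 89.0 CPM in the 5 libraries of high share and 143 to 573 CPM in the other 7. Dkk3 was at 0 to 32.0 CPM in the 5 and 61.9 to 403 CPM in the 7. These were the only 2 of the 22 tested Wnt genes without overlap between the sets, both lower in the 5, as were 9.98% of all tested genes. Wnt4, at 729 to 1131 CPM in the 5 and 314 to 877 CPM in the 7, overlapped, as did Lrp6 at 136 to 191 and 73.2 to 149 CPM. With CPM taken from total counts in place of TMM-scaled sizes, both were higher in all 5 without overlap: Wnt4 had 917 to 1266 against 269 to 888 CPM, and Lrp6 171 to 205 against 62.5 to 143 CPM. That scaling put 12.5% of all tested genes higher in all 5, and 7.46% lower, against 8.62% higher with TMM, and it moved the median log2 difference over all tested genes from 0.02 to 0.40. Wnt10b, which did not pass the filter for testing, was at 8.83 to 20.7 CPM in the 5 libraries and at 0 to 3.06 CPM in the 7. It was named for this among the 39 untested Wnt genes and exceeded the chemoreceptor 95th percentile in 0 of 12 libraries. The share of all untested genes apart between the same sets was not measured. These sets were formed from the chemoreceptor share and not by the study, so the differences are described without a test.

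**Figure D4:**
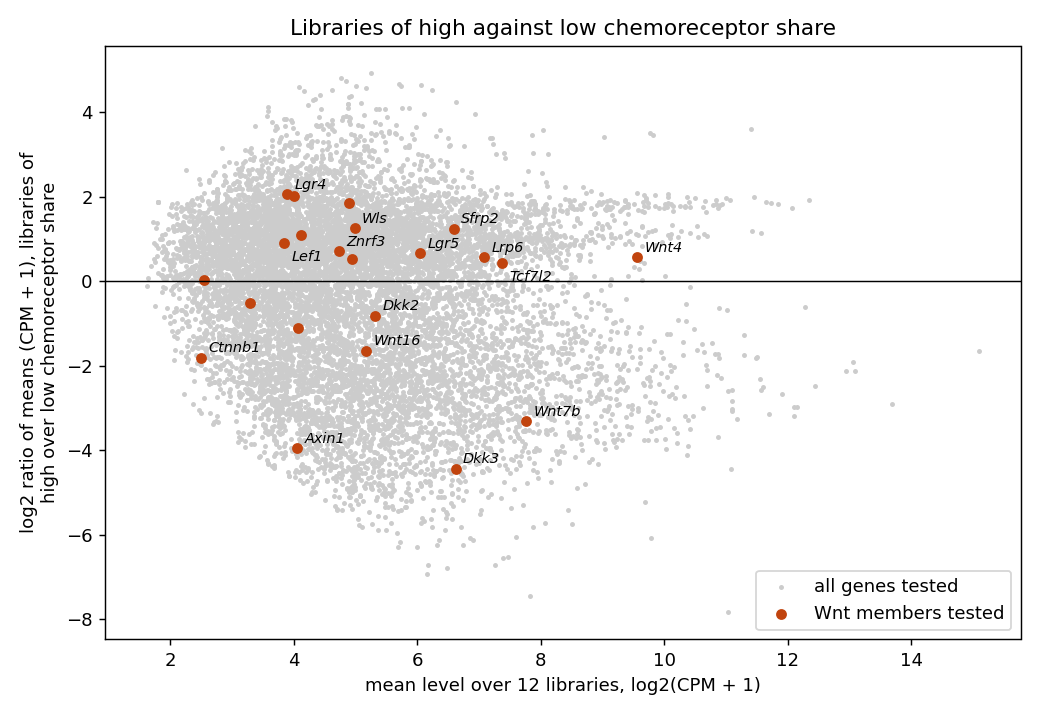
Log2 ratio of the mean CPM + 1 in the 5 libraries of high over the 7 of low chemoreceptor share (vertical) against mean level over 12 libraries as log2(CPM + 1) (horizontal), for all 10848 tested genes (grey) and the 22 tested Wnt genes (orange). Wnt7b, Dkk3 and Axin1 lie low, and Wnt4 lies at 0.57.

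The counts that were not whole fell in part of the module. Of the 22 tested Wnt genes, 7 (Fzd3, Lgr5, Wnt5a, Lef1, Dkk2, Lrp6 and Wnt4) had counts that were not whole in any library, and 8 (Wnt3, Wnt7b, Axin1, Sfrp2, Wnt16, Dkk3, Lgr4 and Tcf7l1) had whole counts in all 12. Over all tested genes 3610 and 2823 fell in these classes, out of 10848. The median coefficient of variation was 71.6% in the first 7 and 105% in the second 8, and 69.7% and 118% in the same classes over all tested genes. By contrast with Wnt4, 34.3% of the 31-base stretches of Lef1 occur in other genes, and its mean level was 13.3 CPM. Shared stretches and counts that were not whole did not always go together. Lrp6 shares 0.182% and Wls 0%, with counts not whole in 12 and 11 libraries. Sfrp2 shares 14.7%, with whole counts in all 12.

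A list of 101 further Wnt pathway genes was read for context. Of these, 57 were tested, and 0 had an adjusted p under 0.05 in edgeR or in DESeq2. At an unadjusted p under 0.05 in edgeR there were 4, with 2 higher in large clones and 2 lower, against 1.44% and 1.1% of all genes. Sox9, a transcription factor of progenitor cells that Wnt signalling can induce, had 52.7 ± 37.3 CPM in large against 15.0 ± 8.94 CPM in small clones (mean and SD, n = 6 each, log2 fold change 1.81, SE 0.70) and was higher in the large clones of 6 of 6 mice. Rac1, a GTPase of the planar polarity branch, had 29.3 ± 19.5 and 86.2 ± 34.8 CPM (log2 fold change -1.56, SE 0.61) and was lower in the large clones of 6 of 6 mice. Kremen1, a receptor for Dkk proteins, had a median of 4.42 CPM in large against 11.7 CPM in small clones (log2 fold change -2.32, SE 0.87) and was lower in the large clones of 4 of 6 mice. Its log2 fold change was -1.22 without mouse 4 and -0.0085 in the 5 libraries of high share. Gpc4, a glypican, had 81.3 ± 184 and 9.25 ± 4.88 CPM, with 457 CPM in the large clones of mouse 4, and was higher in the large clones of 2 of 6 mice. Its log2 fold change was 3.13, and -0.56 without mouse 4. The adjusted p was 0.9998 in edgeR for each of these 4 genes. The most abundant of the list were Vangl1, a membrane protein of planar polarity, Amer1, an adaptor of the destruction complex, and Rhoa, a GTPase, at 271, 184 and 132 CPM on average, with unadjusted p of 0.253, 0.219 and 0.662 in edgeR.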

How the data were processed

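Poly(A) RNA of microdissected cells was amplified and made into Nextera XT libraries, per the labels' protocols. The deposited table holds, for each gene and library, the expected count that the authors obtained with Bowtie2 and RSEM per the submitters' processing notes, where RSEM divides a read that fits several transcripts among them. The notes name GRCm38, but only 2.96% of 35491 genes start where GENCODE M21 places them on GRCm38, so gene coordinates are given as in the table, without a build. The aligner settings and annotation release are not given in the sources used here. The 1 gene without a symbol, a pseudogene with 0.133% of counts, was kept under its identifier.

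Counts were rounded and tested with edgeR 4.0.16 (R 4.3.3; TMM, filterByExpr, quasi-likelihood F test, Benjamini-Hochberg over 10848 genes), large minus small clones, without a term for mouse. The filter kept 97.2% of counts. Floors cover counting error only, since the amplified reads carry no molecular identifiers. DESeq2 1.42.0, other filters, RLE scaling, chemoreceptor share as a covariate, subsets of libraries and omission of each mouse were alternatives. The labels give the same mouse for same-numbered libraries, and the correlation of their deviations from the group means was -0.016, -0.010, -0.37, 0.27, 0.51 and 0.63 for mice 1 to 6. Lengths, runs of A and shared 31-base stretches come from the longest protein-coding GENCODE M21 transcript, matched by gene identifier for all 61 genes. Promoter windows are from RefSeq (GRCm38.p6). The test across genes was tried on simulated counts.

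The members, lists and tests were chosen with earlier results of these data known. Genes named in the comparison were the 10 with the highest mean CPM, those with an unadjusted p under 0.05, the 3 with the largest fold change each way, and Axin2, Lgr5, Lef1 and Sp5; of the pathway list, those with an unadjusted p under 0.05 and the 3 most abundant.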

Additional observations from a re-analysis of the deposited data

Results flagged for a closer look

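Each named Wnt gene was searched within each clone size for a library apart from the other 5, by the gap to its nearest neighbour over the range of log2(CPM + 1). Of 33 groups searched, 3 had a gap above 0.625, where chance gives about 1 in 20. Lgr5 was at 143 CPM in the large clones of mouse 6, against 58.3 CPM in the next library (gap 0.6827). Wnt16 was at 0.420 CPM in the small clones of mouse 6, against 23.4 CPM in the next (gap 0.711). Sp5 was counted in the large clones of mouse 1 alone, at 1.06 CPM from 5 counts (gap 1). A gene counted in 1 library of 6 has a gap of 1 whatever its level, so that value is not read against the chance rate.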

How the results depend on the processing

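No Wnt gene and no gene of the pathway list had an adjusted p under 0.05 in any of 16 alternatives, where DESeq2 called 5 of all tested genes, and 43 with the replicate block. At an unadjusted p under 0.05 the main count of 1 of 22 Wnt genes became 3 of 22 in DESeq2 and 5 of 22 with the replicate block added. It was 8 of 59 in edgeR with no filter on low counts, and ran from 1 to 2 without 1 mouse. The main 4 of 57 pathway genes became 11 of 57 in DESeq2 with the block and 11 of 101 with no filter. In the 5 libraries of high chemoreceptor share there were 2 of 61, and the count ran from 2 to 5 without 1 mouse. Over all genes the main 275 of 10848 became 535 in DESeq2, 1134 in DESeq2 with the block and 2880 of 25369 with no filter. It was 529 with the share as covariate and 486 with share and block. In the 7 libraries of low share there were 560 of 11244 and in the 5 others 685 of 13149. The count ran from 180 without mouse 4 to 492 without mouse 3. Of the Wnt genes, 4 exceeded the 95th percentile of chemoreceptor genes in at least 6 libraries, 1 exceeded the 99th, 1 exceeded the 95th in all 12 libraries and 12 did so in any 1. Total-count scaling, chosen after seeing the data, put 2 Wnt genes higher in all 5 libraries of high share, against 0 with TMM.

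Tcf7l2 kept its direction in all 16 alternatives, from 1.05 to 1.51, with a lowest adjusted p of 0.161, in DESeq2 with the block. Wnt16, Axin1, Lef1, Rac1, Sox9 and Kremen1 also kept theirs in each alternative in which they could be tested, though Kremen1 came to -0.0085 in the 5 libraries of high share. The sign of the other log2 fold changes turned as follows, with the cause not tested.

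With the replicate block, Wnt7b was -1.24, Dkk3 -1.09, Lgr5 0.070, Ctnnb1 0.097, Gpc4 -0.46 and Vangl1 -0.27; in DESeq2 with the block they were -1.25, -1.13, 0.067, 0.088, -0.50 and -0.28. With the share as covariate, Wnt4 was -0.032, Sfrp2 -0.18, Wls -0.070 and Ctnnb1 0.16. With share and replicate block, Wnt4 was -0.052, Wnt7b -0.35, Sfrp2 -0.021, Ctnnb1 0.79, Gpc4 -0.35 and Vangl1 -0.85. In the 7 libraries of low share, Wnt4 was -0.11, Sfrp2 -1.09, Wls -0.87, Lgr4 -0.31, Znrf3 -0.36, Ctnnb1 0.0074, Vangl1 -1.66 and Rhoa -0.64. In the 5 libraries of high share, Wnt4 was -0.12, Wnt7b -1.58, Lrp6 -0.17, Lgr5 0.054, Dkk2 -0.24, Ctnnb1 0.039, Gpc4 -1.45 and Amer1 -0.70.

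Without 1 mouse in turn, Wnt4 ran from -0.12 to 0.28, Wnt7b from -0.58 to 0.33, Dkk3 from -1.28 to 0.87, Lgr5 from -0.36 to 0.22, Dkk2 from -0.034 to 0.72, Gpc4 from -0.56 to 3.60, Vangl1 from -0.46 to 1.502 and Amer1 from -0.053 to 1.23.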
